A study of Rattus norvegicus with 4 samples.

Results

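The immediate early genes examined here encode 10 transcription factors and regulators: *Fos*, *Fosb*, *Jun*, *Junb*, *Jund*, *Egr1*, *Egr2*, *Egr3*, *Ier2* and *Atf3*. The RNA of most of them rises within minutes of a stimulus. All 10 were chosen by symbol, and each was found once among the 30058 genes counted. FOS and JUN proteins pair through leucine zippers to form AP-1, which binds DNA at sites of its own, and ATF3 can pair with JUN proteins. EGR1, EGR2 and EGR3 are zinc finger factors that bind GC-rich sequences, and EGR1 works with other factors at the *Lhb* promoter of gonadotrophs. Transcription of most of the 10 genes is switched on by kinase cascades without new protein being made, and their RNAs are unstable. The cascades act on factors already present, such as SRF with its ternary complex partners and CREB. Enzymatic and mechanical dispersion of a tissue is itself known to induce many of them.

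The cells came from freshly dispersed anterior pituitaries of postpubertal Sprague Dawley rats, an outbred stock. The female pool held 4 glands of diestrus animals on postnatal day 44 and the male pool 4 glands of animals on postnatal day 59. Each pool was run on 2 lanes of a droplet controller, so that the lanes of a sex are technical replicates, and sex cannot be told apart from pool and age. The tissue was chopped, shaken with trypsin, passed through trypsin inhibitor and EDTA and then dispersed mechanically. Undispersed tissue was not analysed here, so the part of dispersion in any level below was not tested.

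Of 7861 cells in the table, 6847 were assigned to 9 types by the study's marker genes and kept. They comprised 2311 folliculostellate cells (FSC), 792 corticotrophs (C), 240 gonadotrophs (G), 88 thyrotrophs (T), 1889 somatotrophs (S), 482 lactotrophs (L), 551 leukocytes (Le), 133 endothelial cells (EC) and 361 erythrocytes (E). FSC are non-endocrine cells that form a network among the 5 types of hormone-producing cells (HPC), which are C, G, T, S and L. The lanes held 18955509 to 24048021 UMIs, and the median cell ranged from 6482 UMIs in Le to 13659 UMIs in S, with 6894 UMIs in FSC. Levels are given as UMIs per 10000 UMIs of the same cells, so that hormone RNA counts in the totals of HPC. Because each library reads only the 3′ end, and because genes differ in how much of that end was annotated, levels were compared between cell types and not between genes.

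In the table of RefSeq promoter windows used here (300 bases, build GRCr8, 250 before the start site to 50 after it), 6 of the 10 genes were matched, namely *Fosb*, *Junb*, *Jund*, *Egr1*, *Egr2* and *Ier2*. These windows were searched on both strands for the CArG box, which is bound by SRF, and for the cyclic AMP response element TGACGTCA and its shorter form TGACG, which reads CGTCA on the other strand and is contained in the full element. Both forms are bound by CREB and ATF factors. A CArG box was found in 1.64% of all 33469 promoter windows of this length, TGACGTCA in 1.83% and TGACG in 21.2%. The parts of the 4 windows that held a CArG box or a full TGACGTCA are shown because SRF and CREB, named above, bind such elements. The capitals mark the elements, and induction through them was not tested.

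Egr1: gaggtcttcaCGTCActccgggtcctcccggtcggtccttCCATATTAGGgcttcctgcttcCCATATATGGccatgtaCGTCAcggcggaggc
Egr2: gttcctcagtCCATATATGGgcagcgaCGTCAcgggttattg
Jund: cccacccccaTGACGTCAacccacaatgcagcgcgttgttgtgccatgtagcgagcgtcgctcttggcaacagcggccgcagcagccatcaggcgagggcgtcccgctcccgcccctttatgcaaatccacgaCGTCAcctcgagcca
Ier2: ggcgtttcagTGACGTCActcttactct

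The *Egr1* stretch lies at chr18:26736933-26737026 on the plus strand and holds 2 CArG boxes between 2 short response elements. The *Egr2* stretch, at chr20:21054493-21054534 on the minus strand, holds 1 CArG box and 1 short response element. The *Jund* stretch, at chr16:18769855-18770002 on the minus strand, holds the full response element, a separate short one near its end and no CArG box. The *Ier2* stretch, at chr19:40399297-40399324 on the plus strand, holds the full response element alone. All 4 stretches lie upstream of the start site. The *Junb* window held 1 TGACG and the *Fosb* window neither element, which says only that these letters were not in those 300 bases. Matches are descriptions of sequence, and binding was not measured.

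The first question was how the members were distributed over the cell types. FSC held the most RNA of these genes per UMI. The 10 genes together made up 317 and 296 UMIs per 10000 in the FSC of the 2 female lanes and 228 and 216 in those of the 2 male lanes. In HPC the sum ranged over 20 values (5 types in 4 lanes) from 18.8, in L of a female lane, to 87.1, in G of a male lane, so that FSC and HPC did not overlap. Of the non-pituitary types, EC held 92.0 ± 17.7 (SD, n = 4 lanes) and Le 74.5 ± 7.54. Erythrocytes, which carry little RNA of their own beyond globins, held 0.662 ± 0.0610 and serve as the measure of free RNA in the droplets.

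The table was tested with edgeR's quasi-likelihood test on UMI sums per cell type and sex, with a limit of 0.001 on the Benjamini-Hochberg adjusted p over all 13618 genes tested. All 10 members were higher in FSC than in the mean of the 5 HPC types, where 17.3% of all genes tested were called higher (2359 higher and 1268 lower, or 2822 and 787 with total UMIs in place of TMM scaling). All 10 were also higher in FSC than in the mean of the 7 other types of the fit, E being left out, where 16.5% of all genes were called higher. These comparisons share their FSC sums and most of their other sums, and only 2 pools of animals stand behind them. The call of each of the 10 in both comparisons was kept under every alternative run. The median log2 fold change between FSC and HPC was 2.85 over the members and 0.09 over all genes tested.

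**Figure D1:**
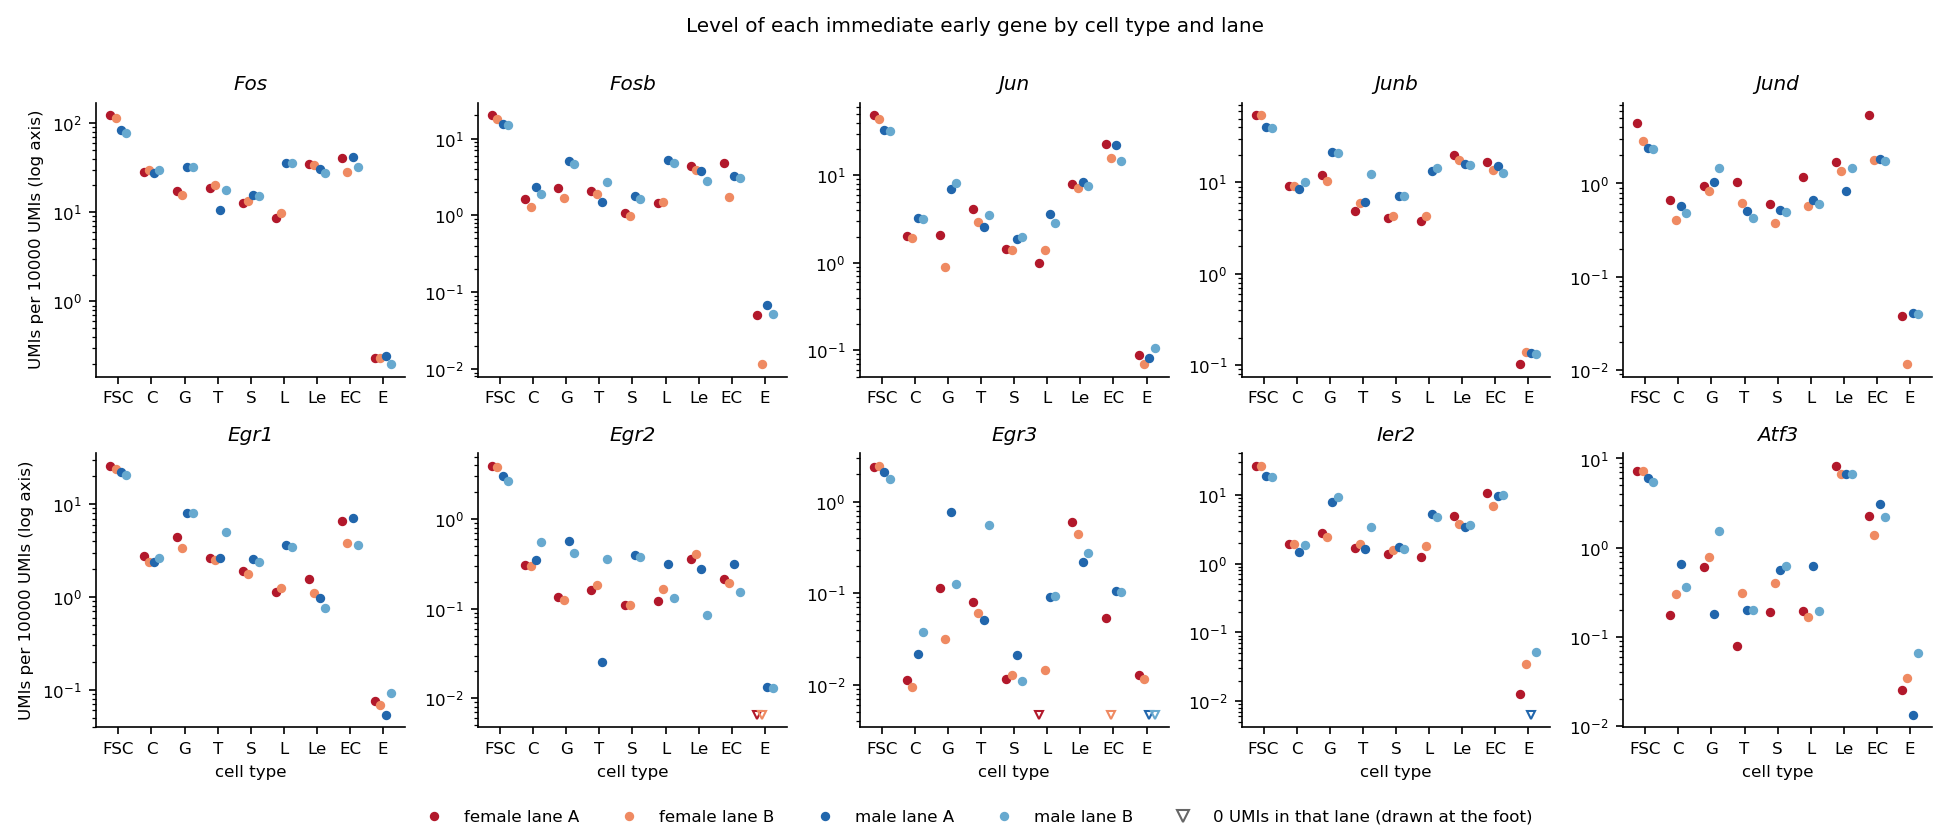
Level of each of the 10 genes (UMIs per 10000 UMIs, logarithmic axis) in 9 cell types. Each point is 1 lane, red or orange for the 2 female and dark or light blue for the 2 male lanes, and open triangles at the foot of a panel mark lanes with 0 UMIs. FSC have the highest mean for 9 genes, Le reach the level of FSC for *Atf3*, and the lanes of E lie below those of the other types, except for *Egr3*, where S and other types with few UMIs reach the level of E.

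*Fos*, the FOS protein of AP-1 that is most often used as a mark of recent cell activity, stood at 123 and 113 UMIs per 10000 in FSC of the female lanes and at 84.2 and 78.2 in FSC of the male lanes. The next type was EC at 28.2 to 41.7, which did not overlap FSC. In HPC the levels ranged from 8.69 to 35.8. *Fos* was 4.14-fold higher in FSC than in HPC (log2 2.05 ± 0.23 SE, adjusted p = 1.52e-06, edgeR). In order of their mean levels, EC, Le, C, G, L, T and S followed FSC, and each of these overlapped its neighbour over the 4 lanes. The lowest were S, at 12.8 and 13.4 in the female and 15.6 and 15.2 in the male lanes.

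*Fosb*, a FOS relative with a known role in longer-lasting stimulation, was at 20.1 and 17.8 UMIs per 10000 in female FSC and at 15.4 and 15.1 in male FSC. Its HPC levels ran from 0.990 to 5.23, with the upper end in L and G of the male pool. FSC exceeded HPC 6.79-fold (log2 2.76 ± 0.21 SE, adjusted p = 2.48e-08, edgeR). Le, at 2.80 to 4.33, overlapped G, L and EC.

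Of the JUN family, *Jun* encodes the founding partner of FOS. Its level was 48.8 and 44.1 UMIs per 10000 in FSC of the female pool and 32.8 and 32.3 in FSC of the male pool. EC came next at 14.5 to 22.7, apart from both FSC above and Le (7.16 to 8.44) below. The HPC lay between 0.898 and 8.18, and FSC exceeded them 13.2-fold (log2 3.73 ± 0.26 SE, adjusted p = 8.48e-09, edgeR). *Jun* therefore had a second type, EC, set off from the rest, and it was called higher in EC against the mean of the other 7 types (log2 1.72 ± 0.27 SE, adjusted p = 8.72e-05, edgeR).

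*Junb*, whose protein is a weaker activator than JUN and can oppose it, was at 54.4, 54.2, 40.2 and 39.2 UMIs per 10000 in FSC of the 4 lanes, the females first. Le held 15.4 to 19.8 and G 10.3 to 21.4, and these overlapped. FSC exceeded HPC 4.66-fold (log2 2.22 ± 0.22 SE, adjusted p = 6.11e-07, edgeR).

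*Jund*, the JUN gene that is usually expressed without stimulation, had the smallest difference of the 10 between FSC and HPC, 3.58-fold (log2 1.84 ± 0.19 SE, adjusted p = 8.44e-07, edgeR). Its levels in FSC were 4.49 and 2.82 UMIs per 10000 in the female lanes and 2.37 and 2.33 in the male lanes. EC overlapped FSC, with 5.39 and 1.79 in the female and 1.84 and 1.75 in the male lanes. The first female lane stood above the other lanes in FSC and EC alike. Summed over the 8 types of the fit, *Jund* was higher in that lane than in its technical twin by 0.70 on the log2 scale, and 1.95% of 13560 genes differed at least as far between the same lanes. For the other 9 members, summed in the same way, the female twins differed by at most 0.16, and the largest difference of the male twins was 0.29, for *Egr3*.

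The EGR family had 2 members, *Egr1* and *Egr3*, that were called in Le in opposite directions. *Egr1* stood at 25.98 and 23.7 UMIs per 10000 in female FSC and at 22.3 and 20.7 in male FSC, against 1.14 to 8.06 in HPC (6.61-fold, log2 2.72 ± 0.20 SE, adjusted p = 1.34e-08, edgeR). G were the highest HPC type, at 4.42 and 3.40 in the female and 8.02 and 8.06 in the male lanes, and overlapped EC. Le were the lowest type besides E, at 0.759 to 1.58, and *Egr1* was called lower in Le than in the mean of the others (log2 -1.53 ± 0.27 SE, adjusted p = 0.00017, edgeR).

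*Egr2*, known for its part in myelinating glia and lymphocytes, was at 3.96, 3.86, 3.01 and 2.68 UMIs per 10000 in FSC of the 4 lanes. No HPC lane exceeded 0.570. The difference was 12.02-fold (log2 3.59 ± 0.30 SE, adjusted p = 6.90e-08, edgeR). The 7 other types of the fit could not be ordered, since each overlapped the next in the order of their means.

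*Egr3* showed the largest difference of the 10, 34.5-fold between FSC and HPC (log2 5.11 ± 0.35 SE, adjusted p = 6.42e-09, edgeR). FSC held 2.39 and 2.48 UMIs per 10000 in the female and 2.14 and 1.76 in the male lanes. The HPC reached 0.775 in G of a male lane and 0 in L of a female lane, and in S all 1889 cells together had 38 UMIs, the lanes of S overlapping those of E. Le followed FSC at 0.222 to 0.604, and *Egr3* was called higher in Le against the mean of the others (log2 2.49 ± 0.44 SE, adjusted p = 0.000199, edgeR).

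*Ier2*, a short nuclear regulator induced together with the FOS genes, was at 26.6, 26.5, 19.1 and 18.2 UMIs per 10000 in FSC of the 4 lanes and at 1.23 to 9.21 in HPC (7.68-fold, log2 2.94 ± 0.24 SE, adjusted p = 6.54e-08, edgeR). EC followed at 6.88 to 10.6.

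*Atf3*, a stress-induced factor of the ATF family, was the member whose level was not highest in FSC. Le held 8.30, 6.67, 6.70 and 6.71 UMIs per 10000 in the 4 lanes and FSC 7.31, 7.33, 6.02 and 5.50, and the 2 types overlapped. In HPC it lay between 0.0802 and 1.55, and FSC exceeded them 14.8-fold (log2 3.88 ± 0.19 SE, adjusted p = 1.43e-10, edgeR). The comparison of Le with the mean of the other 7 types came to log2 3.71 ± 0.17 SE (adjusted p = 3.91e-11, edgeR). Within Le, the 494 cells with UMIs of at least 2 of the 3 C1q genes, which mark macrophages, had 7.34 UMIs per 10000 or more in 3 lanes and 7.10 in the other, and the 57 remaining Le had 0.118 to 3.26.

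Against the mean of the other 7 types, the calls outside FSC were few. In Le 2 members (*Egr3* and *Atf3*) were called higher, where 17.9% of all genes were, and 1 (*Egr1*) lower, where 9.49% were. In EC 2 members (*Jun* and *Jund*) were called higher, where 12.2% of all genes were. In C, T and L 1 member each, *Atf3*, was called lower, where 2.63%, 0.455% and 1.41% of all genes were. In S 1 member, *Egr3*, was called lower, where 2.64% of all genes were. In G none of the 10 was called by edgeR or DESeq2, where 7.54% of all genes were called in either direction. An unadjusted p below 0.05 was found for 1, and the share of all genes with such a p was not counted. FSC belong to the mean in each of these comparisons. The counts outside FSC rested on the settings. With no filter on low counts 6 members were called lower in C, 7 in T, 8 in S and 3 in L. The shares of all genes above belong to the main setting, and those without the filter are not given here. This rise is therefore not read as a result about the members. The call of *Atf3* was lost in C, T and L without the second male lane, in L also without the second female lane, and in C and L with marker-assigned cells alone. The call of *Egr3* in S was lost without the second male lane, and that of *Jund* in EC without the first female lane.

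**Figure D2:**
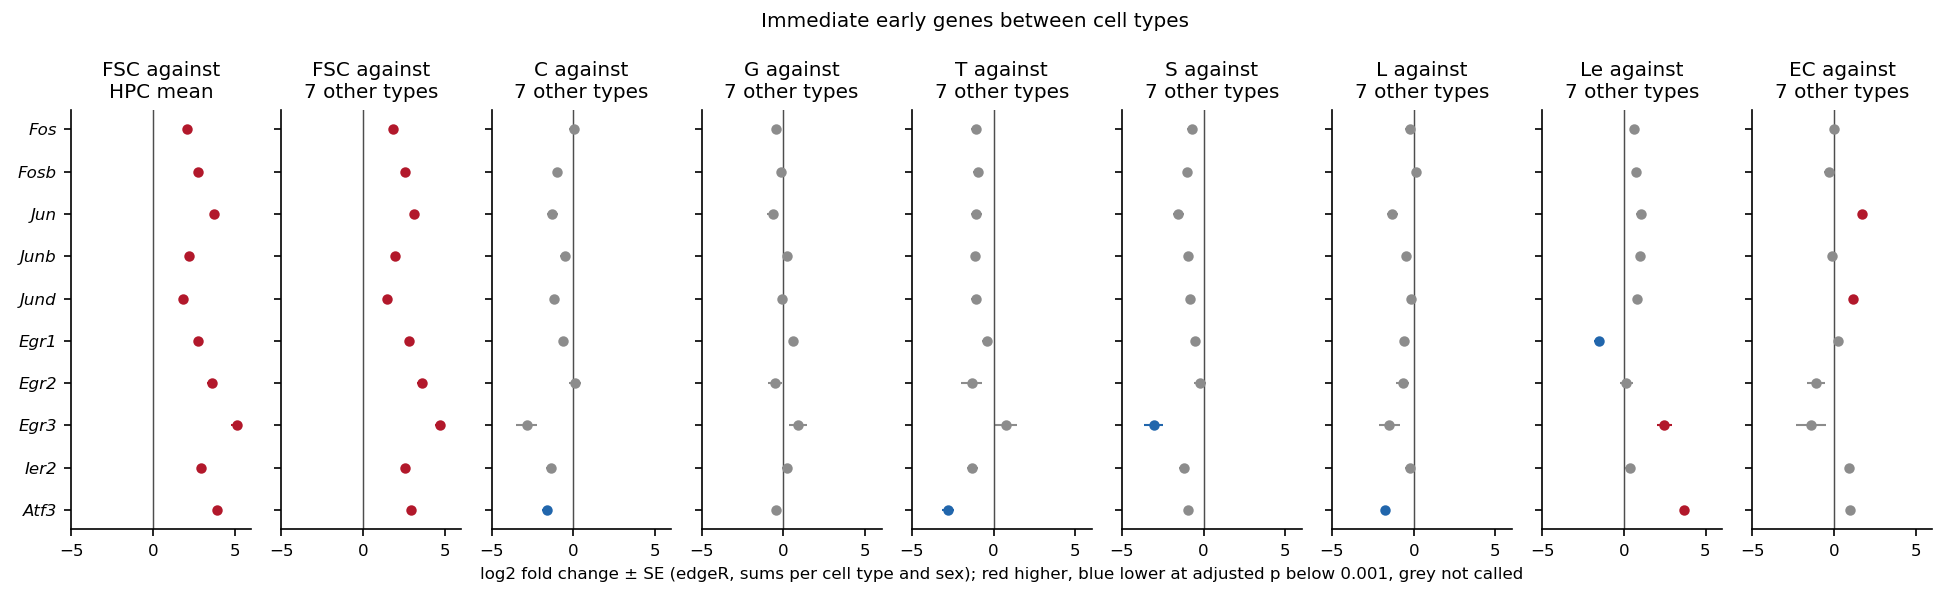
Log2 fold change with its SE for the 10 genes between cell types, from 1 edgeR fit on sums per type and sex. Red points were called higher and blue points lower at an adjusted p below 0.001, and grey points were not called. All 10 points are red in both FSC panels, 2 each in Le and EC, and none in the 5 HPC types.

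The share of cells expressing a gene was taken from an Otsu threshold on the log10 of the normalised count. Above it lay 92.3% of FSC for *Fos* (95% exact binomial interval 91.2 to 93.4), 88.9% for *Jun*, 86.1% for *Egr1*, 81.9% for *Junb*, 77.9% for *Fosb*, 77.5% for *Ier2*, 54.7% for *Jund*, 47.9% for *Egr2*, 44.7% for *Atf3* and 31.2% for *Egr3* (29.4 to 33.2). In the 5 HPC types the share for *Fos* ran from 38.3% in S to 64.9% in C, and for *Jun* from 7.46% in S to 20.8% in G. Le exceeded FSC for *Atf3*, with 62.1% (57.9 to 66.1). These intervals cover counting error only.

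A single UMI is a looser mark, and free RNA adds to it. At least 1 UMI of *Fos* was found in 17.7% of E, a type that should lack the RNA, against 80.7% of S, the lowest HPC type, with median depths of 8246 and 13659 UMIs. For the other members the share of E with a UMI was at most 10.8%, and it was 0.554% for *Egr2* and *Egr3*. *Egr3* was detected in 1.75% of S and 2.02% of C, little above that background, whereas 39.6% of FSC had a UMI of it. No E cell lay above the Otsu threshold for 9 of the 10 genes, and 0 of 361 cells allows a share of up to 0.831% by the limit of 3 counts and 1.02% by the exact 95% interval.

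The second question was whether the genes were found in the same cells. To set cells of unequal depth side by side, each was thinned to 2000 UMIs, and no cell of the 9 types was shallower. Hormone RNA counts among the 2000 UMIs, and its part in the numbers of genes per cell was not tested. The median FSC then had 7 of the 10 genes with at least 1 UMI, and 58.2% of FSC had 7 or more. The median was 2 in C, T, S and L, 3 in G, 4 in Le and EC and 0 in E. Of the HPC, between 1.14% (T) and 5.83% (G) had 7 or more, and of Le 5.26% and of EC 20.3%. Among 48 pericytes, which are not one of the 9 types, 39.6% had 7 or more. FSC were not uniform: 10.1% of them had 3 or fewer of the genes and 1.86% had none.

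The mean number of genes per FSC was 6.64 and 6.42 in the female and 6.44 and 6.44 in the male lanes. The 4 lanes thus lay close together in this number, though not in the summed level given above. After thinning, *Fos* and *Jun* had a UMI in 95.2% and 91.5% of FSC. *Atf3*, *Egr2*, *Jund* and *Egr3* had one in 41.9%, 34.6%, 32.0% and 21.6%. Why the lanes were closer in the number than in the summed level was not tested. In G the females had 2.78 and 2.67 and the males 4.40 and 4.28, and in L the females 1.67 and 2.09 and the males 3.48 and 3.02. Within the lanes of FSC, the Spearman correlation over cells between this number and the total UMIs of the cell before thinning was 0.0802 to 0.271, and with the mitochondrial share it was -0.207 to -0.0851 (552 to 604 cells per lane, which share a library). In normalised UMIs per cell, *Fos* in FSC ran from 3.81 at the 5th percentile over a median of 82.2 to 196 at the 95th.

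**Figure D3:**
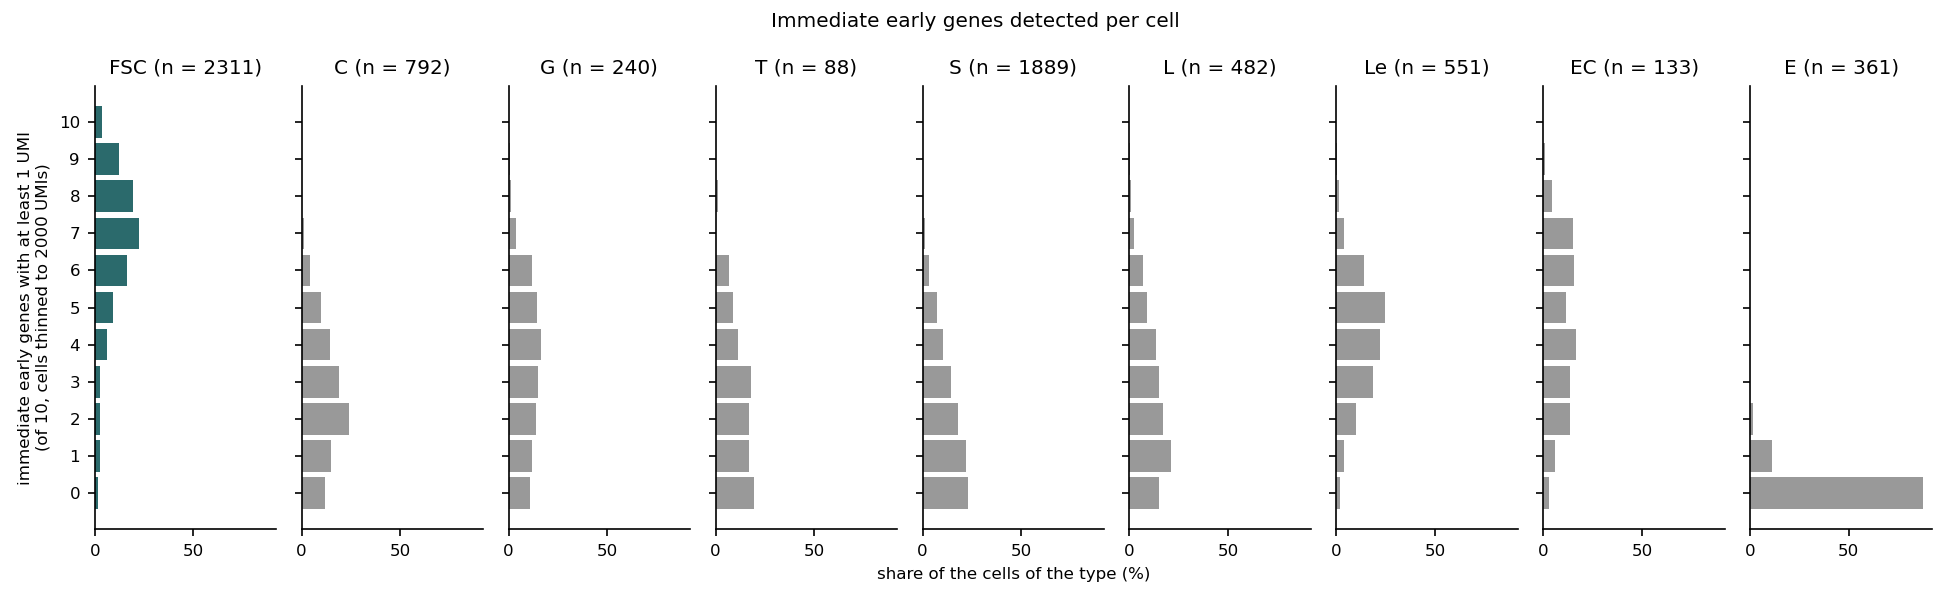
Share of the cells of each type (horizontal axis, %) by the number of the 10 genes with at least 1 UMI (vertical axis), after thinning each cell to 2000 UMIs. FSC peak at 7 genes, Le and EC are centred on 4, the HPC types lie at 0 to 5 for most cells, and most E have none.

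Pairs of members were found together in FSC more often than their separate shares would give. For each of the 45 pairs and each lane, the odds ratio of detecting both genes in a cell was computed over the thinned cells. In FSC it was above 1 in all 4 lanes for 45 of 45 pairs, with a median over pairs of 9.88. The highest was that of *Fos* and *Junb*, at 46.8 (35.5 to 54.7 over the lanes), and both were detected in 86.7% of FSC against 83.4% given by their separate shares. The 3 lowest ratios were pairs of *Jund*, with *Egr2* at 1.75 (1.26 to 1.93), with *Egr3* at 1.89 and with *Atf3* at 2.18. No p is attached to these ratios, because cells of a lane share a library and a pool. The ratios were not computed for pairs of other genes, so they do not set the members apart from other genes of FSC.

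The ratios were not run for E, nor for T, which had 18 and 19 cells in the female lanes, under the minimum of 20 per lane. In the other types run, the median ratio over pairs was lower. The median cell of those types also held fewer of the genes than that of FSC, and the part of detection in the ratios was not tested. In S 36 of 45 pairs were above 1 in all lanes (median 3.16), in L 31 (3.68), in C 27 (2.50), in G 26 (2.64), in EC 22 (2.54) and in Le 19 (1.62). Fewer cells make fewer pairs reach that mark, so the counts of G and EC, with 240 and 133 cells, cannot be set beside that of FSC. Le, with 551 cells, had more cells than L and fewer such pairs. In Le the highest ratio was that of *Fos* and *Atf3*, at 6.53 (3.55 to 14.0), while *Egr3* and *Atf3*, the members called higher in Le, had the lowest, at 0.904. That ratio rests on few counts, since Le held 49 and 41 UMIs of *Egr3* in the female and 23 and 26 in the male lanes before thinning.

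**Figure D4:**
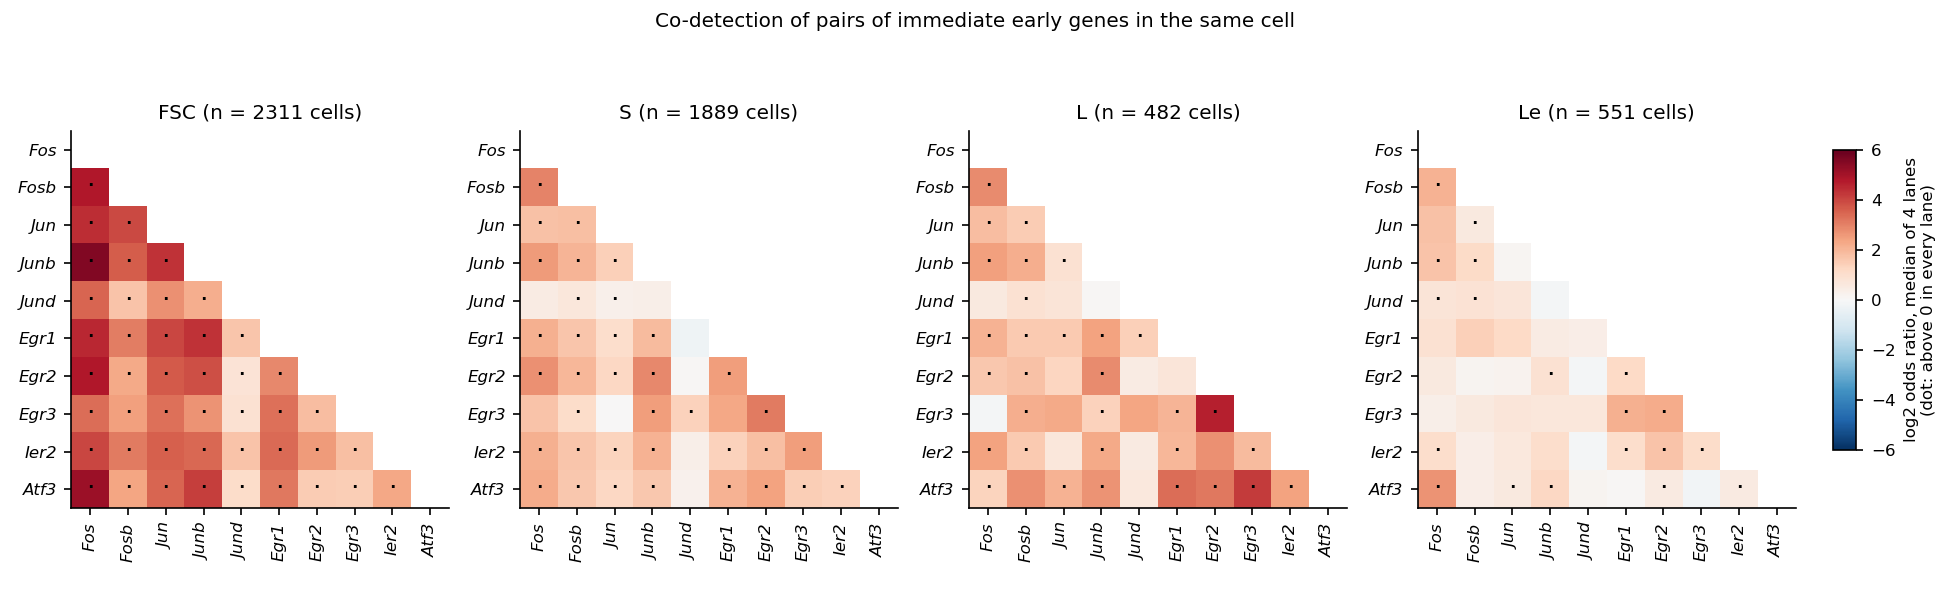
Log2 odds ratio of detecting 2 of the genes in the same cell (colour, median of 4 lanes, cells thinned to 2000 UMIs) in FSC, S, L and Le. A dot marks pairs above 0 in every lane. All 45 cells of the FSC panel are dotted, and the lowest ratio there, 1.75, is that of *Jund* and *Egr2*.

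The genes most like *Fos* over FSC were named by the lowest of the 4 lanes' Pearson correlations of detection over 2311 thinned cells, among 4837 genes detected in at least 5% of FSC. They were *Junb* (0.431 to 0.552 over the lanes), *Jun* (0.366 to 0.604), *Egr1* (0.349 to 0.488), *Zfp36* (0.314 to 0.355) and *Fosb* (0.298 to 0.422). Those most like *Egr1* were *Junb* (0.451 to 0.577), *Ier2* (0.385 to 0.461), *Zfp36* (0.366 to 0.466), *Fos* (0.349 to 0.488) and *Btg2* (0.323 to 0.4997). *Zfp36*, whose protein speeds the decay of AU-rich mRNAs, and *Btg2*, an antiproliferative gene, are themselves known as immediate early genes. Members lower in the order were *Egr3*, 32nd for *Fos* with 0.0791 to 0.131, and *Jund*, 23rd with 0.106 to 0.192.

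Related genes were taken from 4 lists, which were chosen with earlier results of these data known. These genes were compared between FSC and HPC in the same fit. There, as above, 17.3% of all genes tested were called higher and the median over all genes was 0.09. Of 30 further immediate early or dissociation-response genes, 29 were tested, and 24 were called higher in FSC, 1 lower and 4 neither, with a median log2 fold change of 2.72. The largest differences were those of the matricellular gene *Cyr61* (log2 6.55 ± 0.18 SE), the Krüppel-like factors *Klf6* (5.20 ± 0.22), *Klf2* (5.13 ± 0.22) and *Klf4* (3.56 ± 0.24), *Myc* (4.24 ± 0.68), *Ier3* (3.97 ± 0.14) and *Arc* (3.91 ± 0.41). *Npas4*, a factor induced by depolarisation and calcium entry, was the 1 called lower in FSC (log2 -5.67 ± 0.52 SE, adjusted p = 1.89e-07, edgeR). Of the NR4A receptors, *Nr4a3* was called higher (2.53 ± 0.36), and the values of *Nr4a1* (1.46 ± 0.42) and *Nr4a2* (-1.53 ± 0.49) did not pass.

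Of 18 AP-1 partners and relatives, 7 were called higher in FSC, 1 lower and 10 neither, with a median of 0.86. Among those called higher were *Maf* (log2 6.44 ± 0.58 SE), *Batf* (4.02 ± 0.79), *Maff* (3.80 ± 0.31), *Fosl1* (3.52 ± 0.65), *Mafk* (2.43 ± 0.27) and *Atf7* (1.53 ± 0.21). *Fosl2*, another FOS relative, was called lower in FSC (-2.62 ± 0.52, adjusted p = 0.000526, edgeR). The FOS relatives therefore did not all go one way. *Atf2* and *Creb1*, which are activated by phosphorylation, had log2 values of -0.14 ± 0.17 and 0.49 ± 0.20 and did not pass.

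Of 12 heat shock genes that dissociation is known to induce, 9 were tested, and 5 were called higher in FSC and 4 neither, with a median of 0.85. They were the small heat shock gene *Hspb1* (log2 4.52 ± 0.24 SE) and the HSP70 system genes *Dnajb1* (1.72 ± 0.22), *Hspa1b* (1.56 ± 0.23), *Dnaja1* (1.16 ± 0.13) and *Hspa8* (0.85 ± 0.13). The part of such a response in the levels of the 10 members was not tested.

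Of 30 genes of the ERK and SRF pathway, 28 were tested, and 15 were called higher in FSC and 13 neither, with a median of 1.45. Among those called were the receptors *Fgfr3* (log2 5.43 ± 0.32 SE), *Fgfr2* (3.88 ± 0.32) and *Egfr* (3.67 ± 0.62). The others with the largest differences were feedback inhibitors, namely the ERK phosphatases *Dusp5* (4.06 ± 0.37) and *Dusp6* (3.97 ± 0.27) and the Sprouty genes *Spry4* (4.05 ± 0.33), *Spry2* (3.90 ± 0.40) and *Spry1* (3.32 ± 0.30).

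The third question was whether the pools of the 2 sexes differed within a cell type. Sums per lane were compared, 2 male against 2 female lanes, so that the p-values measure the spread between technical lanes and not that between animals. The differences went in opposite directions in FSC and in 3 of the HPC types. In FSC the 10 log2 fold changes of male against female were all negative, and 7 were called lower in males, where 1.79% of 12874 genes were. In G 6 of 9 tested were called higher in males, where 1.75% of genes were, in S 7 of 9, where 4.82% were, and in L 7 of 10, where 5.16% were.

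In FSC *Fos* was at 123 and 113 UMIs per 10000 in the female lanes and at 84.2 and 78.2 in the male lanes (log2 -0.58 ± 0.04 SE, adjusted p = 1.44e-08, edgeR). *Jun* (-0.55 ± 0.04), *Ier2* (-0.55 ± 0.04), *Junb* (-0.49 ± 0.03), *Egr2* (-0.49 ± 0.06), *Atf3* (-0.38 ± 0.05) and *Fosb* (-0.35 ± 0.04) were also called lower. *Jund* (-0.67 ± 0.13), *Egr3* (-0.36 ± 0.08) and *Egr1* (-0.24 ± 0.04) did not pass, and that of *Jund* was -0.32 without the first female lane. The number of calls depended on the settings: without the second female lane, and likewise with no filter on low counts, 0 of the 10 were called, and without the first female lane or without the first male lane all 10 were, the sign being negative each time. The median FSC was less deep in the female pool (6360 UMIs, against 7409). The comparison was also run on cells thinned to equal depth, and no called value changed sign there. The number of members called in FSC after thinning is not given here, so no conclusion on the part of depth is drawn.

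In L 7 members were called higher in the male and 1 in the female pool. *Fos* was at 8.69 and 9.85 UMIs per 10000 in the female and at 35.8 and 35.6 in the male lanes, and *Junb* at 3.82 and 4.34 in the female and at 13.2 and 14.2 in the male lanes. The size of the difference depended on the scaling, since total UMIs in place of TMM shifted all genes tested in L, by their median, from a log2 value of 0.02 to 0.66. With TMM the log2 difference was 1.30 ± 0.06 SE for *Fos* (adjusted p = 1.45e-16, edgeR) and 1.10 ± 0.07 SE for *Junb* (adjusted p = 3.82e-13, edgeR), against 1.95 and 1.75 with total UMIs. With 7 hormone genes left out of the totals, *Fos* was at 13.6 in female and 43.8 in male L. *Fosb* (1.13 ± 0.09), *Ier2* (1.10 ± 0.11), *Egr1* (0.92 ± 0.10), *Jun* (0.79 ± 0.13) and *Egr3* (2.92 ± 0.66) were called higher as well, the last from 22 UMIs in 482 cells.

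*Jund* went the other way in L, at 1.16 and 0.577 UMIs per 10000 in the female and 0.663 and 0.606 in the male lanes (log2 -1.10 ± 0.22 SE, adjusted p = 0.000179, edgeR), where 10.8% of genes were called lower. The 2 female lanes lay on either side of the male lanes, and it was no longer called without the first female lane (log2 -0.53), by DESeq2 or with total UMIs in place of TMM (log2 -0.45). Female L were deeper than male L, with a median of 18337 against 7269 UMIs, and after thinning to 2000 UMIs 3 members were called higher in male L and 0 lower. Thinning removes counts of every gene, and the share of all genes called after it is not given here. The part of depth in the calls was therefore not tested.

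In G *Jun* was at 2.08 and 0.898 UMIs per 10000 in the female and at 6.91 and 8.18 in the male lanes (log2 2.09 ± 0.22 SE, adjusted p = 1.77e-05, edgeR). *Egr1*, which takes part in gonadotropin gene control, was at 4.42 and 3.40 in the female and at 8.02 and 8.06 in the male lanes (0.78 ± 0.11, adjusted p = 0.000272, edgeR). The lanes of the sexes did not overlap for either gene, but how many of all genes share this was not counted. These levels are per total UMIs. With total UMIs in place of TMM, the median log2 of all genes tested in G was 0.27 in place of 0.01. The log2 value was then 2.34 for *Jun* and 1.04 for *Egr1*. *Ier2* (1.44 ± 0.11), *Fosb* (1.04 ± 0.14), *Fos* (0.71 ± 0.08) and *Junb* (0.68 ± 0.09) were called too, and *Egr2* (1.64 ± 0.35) did not pass. The 4 lanes held 76, 70, 47 and 47 G.

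In S the called differences ranged from that of *Fos* to that of *Egr2*. *Fos* was at 12.8 and 13.4 in the female and 15.6 and 15.2 in the male lanes (log2 0.18 ± 0.03 SE, adjusted p = 5.41e-05, edgeR). *Egr2* was at 0.110 and 0.109 in the female and at 0.399 and 0.381 in the male lanes (1.77 ± 0.13, adjusted p = 1.05e-12, edgeR). *Atf3* (0.95 ± 0.14), *Junb* (0.71 ± 0.04), *Fosb* (0.68 ± 0.06), *Jun* (0.40 ± 0.06) and *Egr1* (0.37 ± 0.05) were also called higher in males. With cells thinned to 2000 UMIs, 2 members were called higher, and the share of all genes called there is not given here.

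In C 1 of 9 members tested, *Jun*, was called higher in males (log2 0.61 ± 0.07 SE, adjusted p = 2.23e-07, edgeR), where 0.201% of genes were. In 1 fit over all cell types it was not called (log2 0.61, adjusted p = 0.0154, edgeR). In T, Le and EC none of the 7, 10 and 8 members tested was called by edgeR or DESeq2, where 1.53%, 0.419% and 0.814% of genes were called in either direction. In Le 7 of the 10 had an unadjusted p below 0.05, all lower in males, and in T 2 and in EC 2 had one. The share of all genes with such a p was not counted. These numbers therefore do not set the members apart from other genes.

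**Figure D5:**
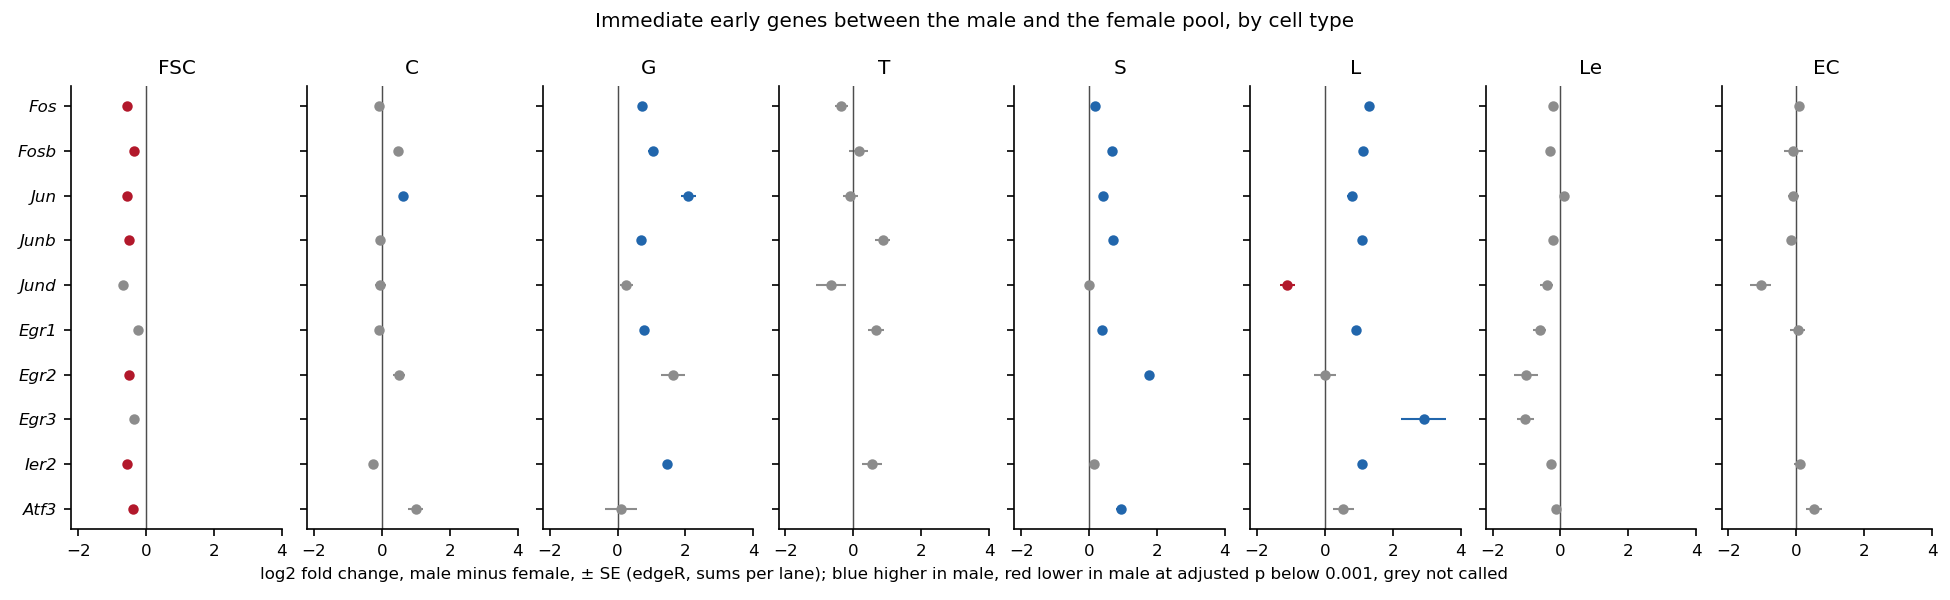
Log2 fold change of the male against the female pool with its SE for the genes tested in each of 8 cell types, from edgeR on sums per lane. Blue points were called higher and red points lower in males at an adjusted p below 0.001, and grey points were not called. The FSC points all lie left of 0 and most G, S and L points right of it, with *Jund* in L the exception among the calls.

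Whether the sex difference itself varied between cell types was tested by the interaction of sex and type over 8 types in 4 lanes. It was called for 9 of the 10 members, where 11.8% of 12702 genes were. The exception was *Jund* (adjusted p = 0.0291, edgeR), which differed between the female twins by log2 0.70 when summed over the 8 types. Within single types other members differed further between twins, as did *Atf3* (log2 -3.09, from 8 and 74 UMIs) and *Egr3* (log2 2.62, from 34 and 6 UMIs) in male G. With DESeq2's likelihood ratio test 5 of the 10 were called, and the share of all genes called by that test is not given here.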

How the data were processed

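The authors aligned the reads to an Rnor6 reference with extended 3′ ends and collapsed UMIs with Cell Ranger (version 2.1), aggregating 4 lanes with depth normalisation by mapped reads. The deposited values are UMI counts per gene and cell. Each extension was limited by the nearest feature on either strand, so that annotations did not overlap. Lane numbers in the barcodes were tied to the sexes by the numbers of cells per lane that the study states, and lanes shared 3 to 7 barcodes per pair.

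Cells were classified by the study's markers, with Otsu thresholds on log10(normalised UMI + 1) and neighbour imputation (189 cells). Doublets (199) and outliers of depth (328) or mitochondrial share (273) were removed. Sums were tested with edgeR 4.0.16 (TMM, filterByExpr with a minimum count of 10), and DESeq2 1.42.0 was an alternative. The tests were tried on simulated data with a set spread. For FSC against HPC the simulated types shared 1 profile apart from the changed genes, whereas the real types differ in far more genes. The recovery and the false calls of that comparison therefore hold for the simulated setting alone. Between the sexes the simulated lanes had the set spread and no difference between pools. Those results likewise hold for that setting alone and do not speak to a design with 1 pool per sex. Of 2-fold changes 38% were recovered for FSC against HPC, and 21% (T) to 43% (FSC) between the sexes. Of 4-fold changes 93% were recovered for FSC against HPC, and 76% (G) to 98% (FSC) between the sexes, with 0 false calls. A gene that was not called may therefore still differ. All 10 members were named, and other listed genes where called between FSC and HPC, at most 8 per list by size, and some listed genes are not reported here. *Nr4a1*, *Nr4a2*, *Nr4a3*, *Atf2* and *Creb1* were named after their values were seen. Members and lists were chosen with earlier results of these data known.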

Additional observations from a re-analysis of the deposited data

Results flagged for a closer look

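The difference between the male and the female pool varied between cell types for 9 members by the interaction test (edgeR, F over 8 types and 4 lanes): *Ier2* (F = 28.2), *Junb* (27.3), *Fos* (26.8), *Jun* (25.0), *Egr2* (22.1), *Fosb* (18.1), *Egr1* (11.4), *Egr3* (6.69) and *Atf3* (6.13). Lanes are technical replicates, so these values do not measure the spread between animals.

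Cells left out of the comparisons also held these RNAs above the level of E. The 10 genes together made up 150 UMIs per 10000 in 48 pericytes, 65.9 in 59 melanotrophs and 72.5 in 58 cells of the posterior lobe type. The second female lane held none of these melanotrophs. The cells of the posterior lobe type are few and uneven, with 37.9% of them at 0 of the 10 genes after thinning to 2000 UMIs and 17.2% at 7 or more. Their mean was 9 genes in each female lane and 2.46 and 1.57 in the male lanes. The pooled values of both types therefore do not stand for the 2 pools alike. How many cells of the posterior lobe type each lane held is not given here, so their lane means are not read as a difference between the pools. Lane values in groups of 2 were not searched for outliers.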

How the results depend on the processing

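All 10 members were called higher in FSC, against HPC and against the 7 other types, under each of the 15 alternatives, and no called value changed sign in any setting run. Other counts moved with the settings. With DESeq2, 4 members were called lower in C, 4 in S and 0 in male L, and 5 were called in the interaction. With the size factors of DESeq2, 2 were lower in C. With no filter, 6 were lower in C, 7 in T, 8 in S and 3 in L, 6 higher in Le and 4 in EC, and between the sexes 0 were lower in FSC, 1 higher in T and 1 lower in EC. At a limit of 0.05, 6 were lower in C, 6 in T, 8 in S and 2 in L, 7 higher in Le and 4 in EC, and 3 higher in male C and 1 in male T. With marker-assigned cells alone, 0 were lower in C and 0 in L. With doublets and outliers kept, 2 were lower in C, 4 higher in Le and 1 lower in male EC. With thinned cells, 4 were lower in C, 2 in T, 6 in S and 2 in L, 4 higher in Le and 1 in EC, 2 higher in male S, 3 higher and 0 lower in male L. With sums per lane, 6 were lower in C, 4 in T, 7 in S and 2 in L and 7 higher in Le. With E in the fit, 2 were lower in C. With total UMIs, 0 were lower in male L. In 1 fit over all types, 0 were higher in male C, 4 in male S and 0 lower in male L. Shares of all genes called are given above for the main setting alone. The counts under other settings therefore show how far the calls depend on the settings, and not how the members compare with other genes. The causes were not tested.

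Leaving out each lane in turn, the members called ranged from 0 to 2 lower in C, 0 to 1 in T, 1 to 2 in S, 0 to 1 in L, 2 to 4 higher and 1 to 1 lower in Le and 1 to 2 higher in EC. Between the sexes they ranged from 0 to 10 lower in FSC, 1 to 3 higher in C, 4 to 8 higher and 0 to 1 lower in G, 6 to 7 higher in S, 6 to 7 higher and 0 to 1 lower in L, 0 to 1 lower in Le and EC, and 7 to 9 in the interaction. With 1 lane left in a sex, that lane is assumed to vary like the others. FSC held the highest mean level for 9 members without each lane, and 45 pairs stayed above 1 in FSC without thinning and at both depths of thinning.

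No paired analysis was possible between the sexes because the barcodes do not carry the replicate numbers of the labels, and each number there marks lanes of separate pools. The comparisons of cell types carried the pool as a term, or the lane in the fit on sums per lane. Only 2 pools stand behind each result, and dispersion, pool and age could not be separated from the levels. In male against female L the median log2 of all genes was 0.02 with TMM and 0.66 with total UMIs.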
